A study of Mus musculus with 4 samples.

Results

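Early B lymphoid genes were examined in mouse fetal liver, a main site of B lymphocyte formation before birth. The set held 9 of the 22905 genes with a named probe: the interleukin-7 receptor gene Il7r, the transcription factor genes Ebf1 and Pax5, the recombinase genes Rag1 and Rag2, the surrogate light chain genes Vpreb1 and Igll1, and the B cell receptor signalling chain genes Cd79a and Cd79b. Every non-control probe designed on a transcript of these genes was taken, without regard to its level, which gave 11 of 56596 usable probes. Rag2 and Ebf1 had 2 probes each and the other genes 1 each.

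Fetal livers were collected at mid-gestation from C57BL/6J dams fed 1 of 2 diets during gestation, and their RNA was hybridized to 4 single-colour Agilent arrays. The control diet (CD, 2 arrays) held 4.3% and the high-fat diet (HFD, 2 arrays) 60% of its energy as fat, and no allele or drug differed between the groups. The comparison asks which transcripts of the fetal liver differ with the diet of the dam. The number of fetuses and dams behind each array is not given in the sources used here, so p-values measure the spread between these arrays, which may be partly technical.

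The fetal liver is the main site of blood formation at this age, and B progenitors form only a small part of its cells. Progenitors that carry the IL-7 receptor switch on EBF1, which acts with E2A proteins and PAX5 to install the B lineage program. RAG1 and RAG2 then cut the immunoglobulin heavy chain locus, and a successful heavy chain pairs with the surrogate light chain (VPREB1 with IGLL1, also called lambda 5) and with CD79A and CD79B to form the pre-B cell receptor. Whole liver RNA was measured, so fewer B progenitors and less RNA per progenitor cannot be told apart in any value below.

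The promoters of 3 members are shown because these genes encode parts of the pre-B cell receptor and are textbook targets of EBF1 and E2A. Each line gives the 250 bases before the transcription start from RefSeq (GRCm38.p6), 5′ to 3′ on the strand of the gene, with capitals at every E-box (CANNTG), the motif bound by E2A and other basic helix-loop-helix factors. The Cd79a window is chr7:24897247-24897496 (+), that of Igll1 chr16:16863986-16864235 (-) and that of Vpreb1 chr16:16869256-16869505 (-).
Cd79a: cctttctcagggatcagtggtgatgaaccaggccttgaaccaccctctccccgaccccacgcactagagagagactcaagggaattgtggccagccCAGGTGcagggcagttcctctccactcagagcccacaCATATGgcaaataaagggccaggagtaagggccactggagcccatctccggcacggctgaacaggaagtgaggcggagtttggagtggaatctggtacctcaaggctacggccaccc
Igll1: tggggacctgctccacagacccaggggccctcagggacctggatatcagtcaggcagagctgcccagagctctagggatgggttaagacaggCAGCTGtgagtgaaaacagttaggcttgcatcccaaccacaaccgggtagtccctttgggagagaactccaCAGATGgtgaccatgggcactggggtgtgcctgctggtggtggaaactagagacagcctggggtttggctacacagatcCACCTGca
Vpreb1: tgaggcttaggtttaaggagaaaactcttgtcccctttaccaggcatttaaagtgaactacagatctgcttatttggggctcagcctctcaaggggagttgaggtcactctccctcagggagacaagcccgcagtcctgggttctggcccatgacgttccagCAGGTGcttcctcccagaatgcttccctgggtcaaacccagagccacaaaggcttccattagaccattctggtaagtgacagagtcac
Windows were found for 8 of the members (9 windows, 2 of them for Ebf1), and Cd79b had none in the table. An E-box was present in 8 of the 9 windows, against 66.2% of 32851 mouse promoter windows of this length. The letters CCCNNGGG, a core of the EBF motif, were present on either strand in 1 window, that of Igll1, against 11.8% of all windows. Only exact matches to the letters were counted, so a window without a match can still hold a binding site. TGGGAA, a core of the Ikaros motif, was in 2 windows against 21.6%, and TATAAA was in 0 against 12.4%. Igll1 and Vpreb1 are adjacent genes on chromosome 16, and Rag1 and Rag2 are adjacent on chromosome 2.

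Levels are given as the log2 intensity of a probe minus the 75th percentile of its array, so that 1 unit is a 2-fold change. Because probes bind with different efficiency, a level is compared only with the level of the same probe on another array. A probe counted as measured on an array where the image analysis called its spot well above background. The lowest levels so called lay between -6.02 and -5.57 on the 4 arrays. A single slide and a single scan held all 4 arrays, and the share of non-control spots well above background was between 65.4% and 70.0%. The arrays differed in their sex-linked transcripts. The sex given in the labels is female for all samples, and the labels do not say whether it is that of the dam or of the fetuses. The Y-linked transcript Eif2s3y was at 1.45 and 1.84 on CD replicate 1 and HFD replicate 1, and at -6.74 and -6.32 on CD replicate 2 and HFD replicate 2. Ddx3y, Kdm5d and Uty split the arrays in the same way, and Xist, which is transcribed from the inactive X chromosome, was at -8.29 and -6.84 on the former pair and at -0.65 and -0.74 on the latter. Each diet therefore had 1 array with Y-linked transcripts and 1 without, and differences within each replicate number are given beside the pooled ones.

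None of the 8 early B lymphoid genes that could be tested differed between the diets beyond the spread of the arrays, and Rag1 was too dim to test. Of the 11 probes, 9 passed the filters and were tested with limma (HFD minus CD, 2 arrays against 2), and 0 passed the cutoffs, which asked for at least a 2-fold change and for p under 0.05 before adjustment. The background over 41332 probes was 0.293% higher and 0.477% lower in HFD, and 0.0% had an adjusted p under 0.05, although 1383 probes had an unadjusted p under 0.05. The smallest unadjusted limma p among the members was 0.410, for Ebf1, and all 9 probes had an adjusted p = 1.00. The groups overlapped for all 9 tested probes, so that 0 probes had separate groups, against 30.6% of all tested probes. The median log2 fold change of the 8 tested genes was 0.0021, beside 0.03 over all tested probes, and the median size of the difference was 0.05 for the members and 0.15 for all probes. With 2 arrays per group, an exact permutation test of a single gene cannot go below 0.333 (two-sided).

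**Figure D1:**
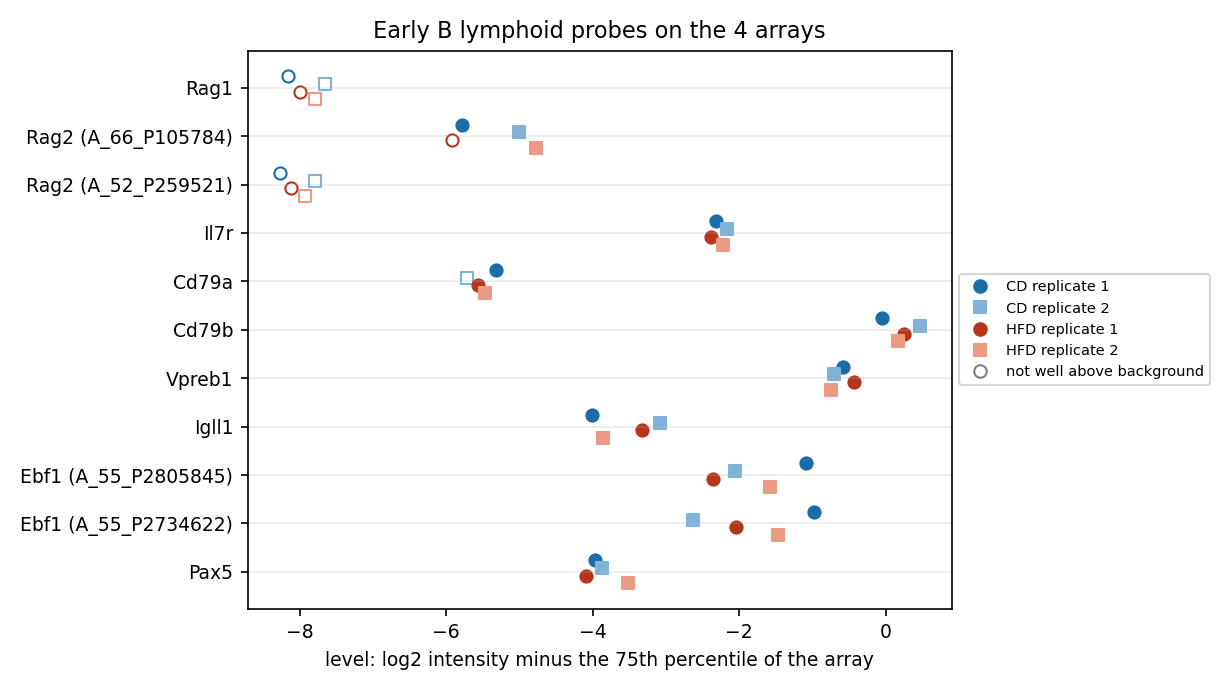
Level of each of the 11 early B lymphoid probes (log2 intensity minus the 75th percentile of the array) on the CD arrays (blue) and HFD arrays (red), with circles for replicate 1, squares for replicate 2 and open symbols where the spot was not well above background. The CD and HFD symbols are interleaved for every probe, and Rag1 and 1 of the Rag2 probes have open symbols on all 4 arrays.

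Il7r, which encodes the alpha chain of the receptor for interleukin-7, a cytokine to which B progenitors respond, was at -2.31 and -2.16 on the CD arrays and at -2.38 and -2.21 on the HFD arrays. All 4 arrays lay within 0.21 of each other, the narrowest range among the members. The log2 fold change was -0.06 (SE 0.17), with a 95% confidence interval from -0.52 to 0.40, which in fold terms runs from 0.698 to 1.32. A 2-fold difference thus lay outside the interval. Il7r was also the only tested member probe whose difference had the same sign within both replicate numbers, at -0.07 for replicate 1 and -0.05 for replicate 2.

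Ebf1, the factor that specifies the B lineage and is also expressed in stromal and fat cell precursors, had the widest spread among arrays. Its first probe (A_55_P2805845) was at -1.09 and -2.06 on the CD arrays and at -2.36 and -1.58 on the HFD arrays. A second probe of the same transcript (A_55_P2734622) was at -0.97 and -2.63 under CD and at -2.05 and -1.47 under HFD. On both probes CD replicate 1 was the highest of the 4 arrays, with HFD replicate 2 next. The CD arrays differed from each other 1.95-fold on the first probe and 3.16-fold on the second. The first probe stood for the gene because its mean level over the arrays was higher, but only just (-1.773 against -1.781), and the second was the brighter on 3 of the 4 arrays.

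Between the diets, the log2 fold change of Ebf1 was -0.40 on the first probe (SE 0.44, interval -1.57 to 0.77) and 0.04 on the second (SE 0.61, interval -1.56 to 1.65). The value of the gene thus depended on the choice of probe, and the mean of both probes gave -0.18. On the first probe the sign rested on CD replicate 1, without which the value was 0.083. On the second, leaving out CD replicate 1 gave 0.87 and leaving out CD replicate 2 gave -0.79. Within replicate 1 the difference HFD minus CD was -1.27 and -1.08 on these probes, and within replicate 2 it was 0.47 and 1.16. The sign thus turned between the replicate numbers on both probes, and as differences of single arrays these values have no test.

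Most markers of mesenchyme and stellate cells were, like Ebf1, higher on CD replicate 1 than on the other CD array. The 8 genes of that list (Pdgfrb, Col1a1, Col1a2, Des, Dcn, Pdgfra, Vim and Reln) all gave a signal well above background on every array, and 7 of the 8 were higher on CD replicate 1, the exception being Reln (3.24 against 3.67). After subtraction of the mean of each gene, their median was 0.41 on CD replicate 1 and -0.34 on CD replicate 2, against -0.04 and -0.05 on the HFD arrays. Their summed level on the log2 scale ran from 7.78 to 8.70 under CD and from 8.21 to 8.36 under HFD. Col1a1, a chain of type I collagen, was at 6.82 and 5.48 under CD and at 6.20 and 6.47 under HFD, the order of arrays that the second Ebf1 probe also had. Other lists had the same direction, with 4 of 6 stem and progenitor genes (medians of 0.26 and -0.31 on the CD arrays) and 7 of 8 neuron genes (0.57 and 0.09) higher on CD replicate 1. The part of any of these cells in the Ebf1 values was not tested.

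Pax5, the factor that commits progenitors to the B lineage, was at -3.96 and -3.87 on the CD arrays and at -4.09 and -3.52 on the HFD arrays, so that both CD values lay between the HFD values. The log2 fold change was 0.12 (SE 0.25, interval -0.54 to 0.77). The difference HFD minus CD was -0.12 within replicate 1 and 0.35 within replicate 2, the signs that both Ebf1 probes also had, while the CD arrays, unlike those of Ebf1, lay within 0.09 of each other.

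The recombinase genes were at or near the detection limit of the arrays. The Rag1 probe was at -8.16, -7.65, -8.00 and -7.79 on CD replicates 1 and 2 and HFD replicates 1 and 2, was well above background on 0 arrays and was not tested. The same held for 1 of the Rag2 probes (A_52_P259521), at -8.27, -7.79, -8.12 and -7.93. The deposited intensity of the Rag1 spot was between 3.50 and 4.10 on each array, and values this far below the detection limit have no order. No level or fold change can be given for Rag1, and its presence in these livers was not detectable with this probe.

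The second Rag2 probe (A_66_P105784) was well above background on 3 arrays and gave levels of -5.79 and -5.00 under CD and -5.91 and -4.77 under HFD. HFD replicate 1, the exception, was not well above background. Both arrays of replicate 2 were higher than both arrays of replicate 1, with intensities of 22.0 and 33.2 against 19.5 and 16.1. The log2 fold change between the diets was 0.05 (SE 0.49), with an interval from -1.24 to 1.34 that holds a 2-fold change in either direction.

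Vpreb1 and Igll1, whose products together replace the light chain in the pre-B cell receptor, had unlike profiles although the genes are neighbours. Vpreb1 was at -0.59 and -0.70 under CD and at -0.43 and -0.75 under HFD. Its log2 fold change was 0.05 (SE 0.19) with an interval from -0.46 to 0.56, or 0.728 to 1.48 in fold terms, and both CD values lay between the HFD values. A 2-fold change lay outside this interval.

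Igll1 was at -4.01 and -3.08 under CD and at -3.33 and -3.86 under HFD. CD replicate 2 was the highest array and CD replicate 1 the lowest, 1.90-fold apart, and both HFD values lay between them. The log2 fold change was -0.05 (SE 0.39, interval -1.08 to 0.98). The difference HFD minus CD was 0.68 within replicate 1 and -0.78 within replicate 2, so the small pooled value is the mean of opposite differences, neither of which can be tested.

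Cd79a and Cd79b encode the chains that carry the signal of the pre-B and B cell receptors into the cell. Cd79b was at -0.05 and 0.47 under CD and at 0.25 and 0.17 under HFD, with the HFD arrays between the CD arrays, and a log2 fold change of 0.0037 (SE 0.24, interval -0.62 to 0.63). Cd79a was near the limit of detection, at -5.32 and -5.72 under CD and -5.57 and -5.46 under HFD, and CD replicate 2 was not well above background. Its log2 fold change was 0.00043 (SE 0.21, interval -0.56 to 0.56).

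**Figure D2:**
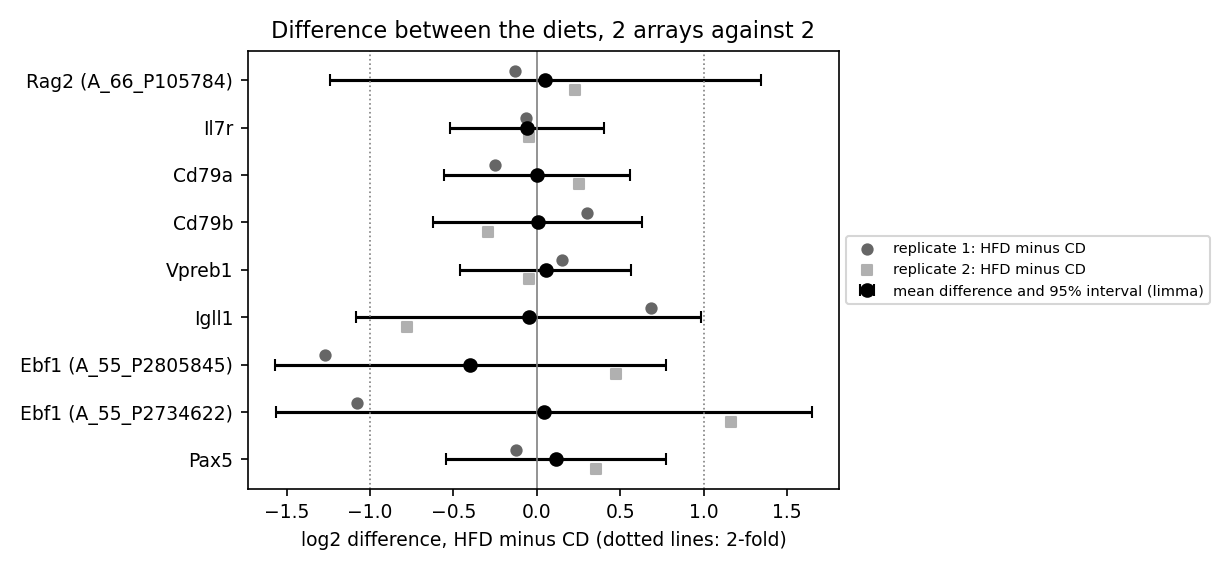
Log2 difference HFD minus CD for the 9 tested early B lymphoid probes, as the mean difference with its 95% interval from limma (black, 2 arrays against 2) and as the difference within replicate 1 (dark grey circles) and replicate 2 (light grey squares). Every interval holds 0, and the differences within the replicate numbers lie on opposite sides of 0 for all probes except Il7r.

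The members varied more between arrays of 1 diet than between the diets. Since each diet had 1 array with Y-linked transcripts and 1 without, variation between arrays of 1 diet includes any difference that goes with that split. The CD arrays were further apart than the group means for 8 of the 9 tested probes, and the share over all probes was 72.8%, so a wide gap between the CD arrays was not particular to these genes. The exception was Pax5, with a gap of 0.09 between the CD arrays. Both HFD values lay between the CD values for 4 probes, those of Cd79a, Cd79b, Igll1 and the second Ebf1 probe. The share of all probes with this order was not computed. The CD arrays were further apart than the HFD arrays for 5 of the 9 member probes, against 75.6% of all tested probes. The differences within replicate 1 and replicate 2 had opposite signs for 8 of the 9 probes, against 59.1% of all tested probes.

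Of the CD arrays, replicate 2 had the higher levels of Igll1 and Cd79b, and also of most genes in many other lists. Vpreb1 (-0.59 against -0.70) and Cd79a (-5.32 against -5.72) were instead higher on CD replicate 1. Replicate 2 was the higher for 11 of 15 B lineage transcription factors, 9 of 11 recombination genes, 10 of 14 cytokine signalling genes and 9 of 10 trophoblast genes. The direction was thus not particular to the lists below, and the mesenchyme and neuron lists had the other one. The 10 tested genes of the pre-B receptor list were at a median of -0.13 and 0.24 on the CD arrays after subtraction of the mean of each gene, and at -0.02 and -0.02 on the HFD arrays. Hepatoblast genes (8 of 8 well above background on all arrays, among them Alb, Afp and Ttr) were at -0.27 and 0.18 under CD and at 0.04 and 0.02 under HFD. Their summed level on the log2 scale ran from 9.95 to 10.59 under CD and from 10.23 to 10.25 under HFD. Erythroid genes (8 of 8, among them Klf1 and Alas2) had medians of -0.30 and 0.14 under CD and summed levels from 9.88 to 10.34 under CD and from 10.10 to 10.20 under HFD. Myeloid genes (8 of 8, among them Mpo, Csf1r and Adgre1) had medians of -0.24 and 0.33 under CD, and of -0.03 and -0.08 under HFD. Between the diets, 0 genes of these lists passed the cutoffs, with log2 fold changes of -0.07 for Alb, -0.01 for Afp, -0.09 for Ttr, -0.03 for Klf1, 0.30 for Alas2, -0.07 for Mpo, 0.04 for Csf1r and 0.03 for Adgre1. The part of the cell makeup of each array in the Igll1 and Cd79b values was not tested.

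**Figure D3:**
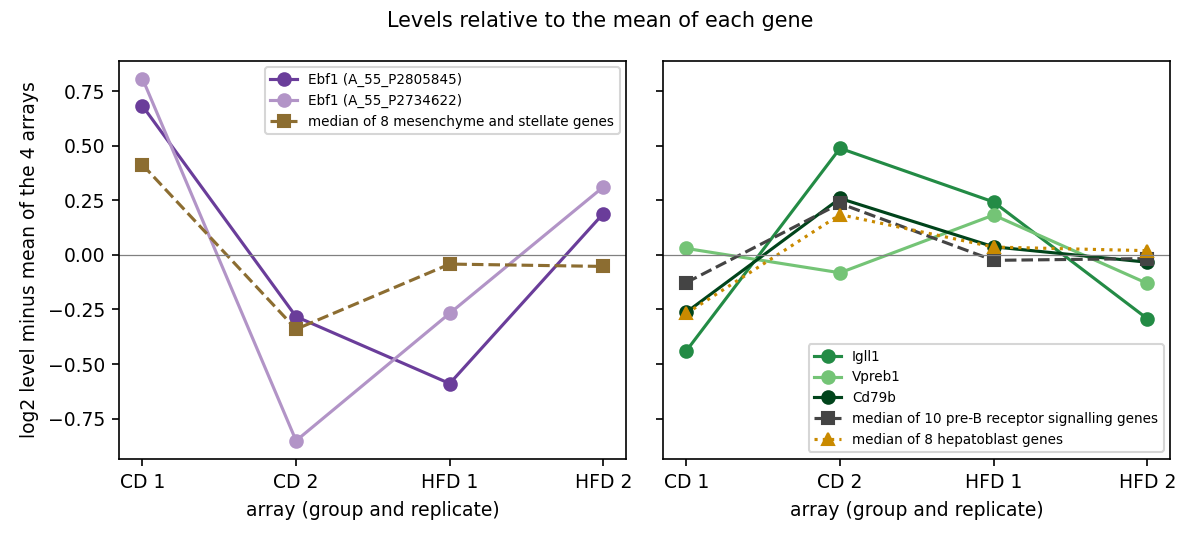
Log2 level minus the mean over the 4 arrays (y axis) on each array (x axis), for the Ebf1 probes and the median of 8 mesenchyme and stellate genes (left), and for Igll1, Vpreb1, Cd79b and the medians of 10 pre-B receptor signalling genes and 8 hepatoblast genes (right). Ebf1 and the mesenchyme genes are highest on CD replicate 1. Igll1, Cd79b, the pre-B receptor genes and the hepatoblast genes are lowest there and highest on CD replicate 2. Vpreb1 has neither order, and is highest on HFD replicate 1 and lowest on HFD replicate 2.

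The genes around the members in the same pathways gave the same count. In 5 lists of B lineage transcription factors, pre-B receptor signalling, V(D)J recombination and end joining, IL-7 and FLT3 signalling, and the surface of B progenitors, 60 of 61 genes had a named probe, 58 were tested and 0 passed the cutoffs. Over the brightest probe of each of 18188 genes, 0.286% were higher and 0.478% lower in HFD. The median log2 fold change of the 58 was 0.0039. Before adjustment, limma gave p under 0.05 for 0 of the 58, against 516 of the 18188 genes. The count among the genes of the 5 lists was 2 with the mean over the probes of a gene. It was 1 with the filter on probes well above background in a group, and 0 genes passed both cutoffs in either setting. It also moved on leaving out either CD array, which leaves 1 array in that group. The lowest value was -0.50 for Spib, an ETS factor of B and plasmacytoid dendritic cells, and the highest 0.40 for Cd72, a B cell coreceptor. Ighm was without a match among the named probes.

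Among the 15 transcription factors, of which 14 were measured on every array, the median log2 fold change was -0.04. Tcf3, which encodes the E2A proteins, was at 3.11 and 3.33 under CD and 3.22 and 3.14 under HFD (log2 fold change -0.04). Ikzf1, which encodes Ikaros, was at 1.20 and 1.83 under CD and 1.75 and 1.54 under HFD (0.13). Foxo1, an activator of Il7r and of the Rag genes, was at 1.49 and 1.24 under CD and 1.45 and 1.54 under HFD (0.13). The groups overlapped for Tcf3 and Ikzf1 and for Foxo1. Separate groups were seen for 5 of the 15 factors, Spib among them, against 30.6% of all tested probes.

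In the pre-B receptor list (10 of 12 genes tested, median -0.02), Vpreb2, a close copy of Vpreb1 whose probe may share signal with it, was at -3.69 and -3.37 under CD and -3.66 and -3.64 under HFD (-0.12). Vpreb3 was at -1.17 and -1.01 under CD and at -1.09 and -1.13 under HFD (-0.02). Blk, a kinase of B cells, was at background on all 4 arrays. Of the recombination and end joining genes (11 of 11 tested, median 0.01), Dntt, which adds nucleotides at the joins, was at -4.18 and -3.83 under CD and -3.91 and -3.78 under HFD (0.16). Dclre1c, which encodes Artemis, and Prkdc, the DNA-dependent kinase, had log2 fold changes of -0.01 and -0.0027.

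The cytokine list (14 of 14 tested, median 0.08) held Il7 itself, at -5.30 and -5.15 under CD and at -5.46 and -5.74 under HFD, close to the detection limit and well above background on 3 arrays. Its groups did not overlap, but the log2 fold change of -0.38 did not pass the test (adjusted p = 1.00, limma). The common gamma chain gene Il2rg and the receptor gene Flt3, which act in the same progenitors, had log2 fold changes of -0.04 and 0.10. Of the surface genes (8 of 9 tested, median 0.07), Cd24a, Bst1 and Cd93 had log2 fold changes of 0.23, 0.21 and 0.0018. Ly6d, which marks lymphoid progenitors that favour the B fate, was left out by the filter on variation, with -0.99 and -2.46 under CD and -2.93 and 0.69 under HFD.

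**Figure D4:**
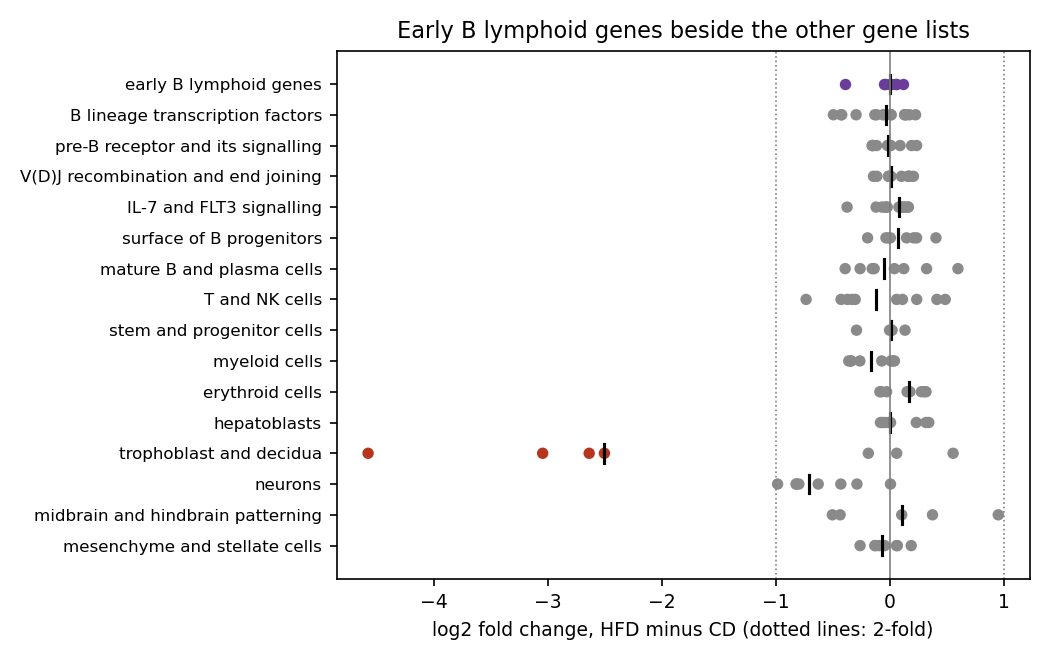
Log2 fold change HFD minus CD of each tested gene (points, brightest probe of the gene) in the early B lymphoid set and 15 other gene lists, with the median of each list as a black bar and genes past both cutoffs in red. All early B lymphoid and B lineage points lie inside the 2-fold lines, and the 4 red genes, which include HFD values not above background, are in the trophoblast and decidua list.

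Markers of later B cells were in part below detection. In the list of mature B and plasma cells, 8 of 11 genes were tested and 0 passed the cutoffs (median -0.05), while Ms4a1, which encodes CD20, Fcer2a, which encodes CD23, and Jchain were well above background on 0 arrays. Cr2, a complement receptor, had a log2 fold change of 0.12. Ighd had no match among the named probes. In the T and NK cell list 10 of 11 genes were tested and 0 passed both cutoffs (median -0.13). Cd3e was at 0.48 and Zap70 at -0.38. Cd3g was well above background on 0 HFD arrays. With HFD levels under the lowest level well above background raised to that level, its HFD mean was 1.27-fold lower. That value makes no allowance for spread, and the limma interval of its log2 fold change, from -0.90 to 0.03, held 0 (adjusted p = 1.00). Stem and progenitor genes (5 of 6 tested, 0 past the cutoffs) had log2 fold changes of 0.13 for Cd34, -0.30 for Kit and -0.01 for Gata2.

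The tissue label was checked against hepatoblast and erythroid genes, which were measured on every array. Genes of other tissues were present as well. In the trophoblast and decidua list, 7 of 11 genes were tested, and 0 rose and 4 fell past both cutoffs, each with an adjusted p = 1.00 (limma). The groups overlapped for the other tested genes, Gcm1 (log2 fold change 0.55), Prl8a2 (0.06) and Psg23 (-0.19). Prl8a6 and Prl3a1 were well above background on 0 HFD arrays. Their means were 11.4-fold and 2.99-fold lower under HFD, taken against the lowest level well above background on each array. These bounds make no allowance for spread. Psg17 (log2 fold change -3.05) and Psg28 (-2.64) were measured on 1 of the 2 HFD arrays, so these values depend on a level at background. Psg28 did not pass without CD replicate 2, Prl3a1 did not pass with normexp background correction, and 0 of the 4 passed the methods' t-test with the same cutoffs. Tpbpa, at 3.01 and 4.80 under CD and 1.00 and -1.01 under HFD, was left out by the filter on variation, and passed both cutoffs where that filter was not used. The summed level of the list on the log2 scale ran from 6.57 to 6.80 under CD and from 6.28 to 6.54 under HFD. Gcm1 and Psg23 had the highest mean levels of the list in both groups, so this sum depends mostly on them. Neuron genes (8 of 8 tested) had a median of -0.72, with 7 of 8 lower in HFD and separate groups for 6. By limma 3 of them had an unadjusted p under 0.05 and 0 passed both cutoffs, although Elavl3, Nefl and Tubb3 passed without HFD replicate 2 and Elavl3 without CD replicate 2. The log2 fold changes of Tubb3, Stmn2 and Snap25 were -0.83, -0.43 and -0.29. In the midbrain and hindbrain list 0 of 5 tested genes passed, with a median of 0.10 and 3 of the 5 higher in HFD. En2 was at -0.51 and Pax2 at -0.44, and En1 was at background on every array. The part of these tissues in the values of the members was not tested.

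Likeness to the members was measured as the root mean square distance on the log2 scale between the centred profile of a gene and the median profile of the 6 members well above background on all arrays, over 4 arrays. That profile was nearly flat, at -0.07 and 0.05 under CD and -0.04 and 0.01 under HFD. Among 16585 genes, the nearest were 9930104L06Rik, Mutyh, Zfp593, Pafah1b2 and Gm15760, at distances from 0.0146 to 0.0172. The members themselves departed further from their median profile, as the Ebf1 and Igll1 values show.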

How the data were processed

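Fetal liver RNA of 2 CD and 2 HFD samples was measured on 1-colour mouse arrays (Agilent SurePrint G3). Groups and replicate numbers came from the sample labels. Per the file headers and the labels, the authors labeled cRNA with Cy3 and read the image with Agilent Feature Extraction 11.0.1.1, and the deposited intensity of each spot was background-subtracted and spatially detrended, with no scaling between arrays. The deposited files also hold median brightness intensities and flags, scored 0 or 1 (a score). A deposited table of signal normalized by the authors (41471 probes) served as an alternative.

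Spots with an outlier flag were left out, the spots of a probe were averaged, the log2 was taken and the 75th percentile of each array subtracted. Left out were probes below the 20th percentile on at least 1 array (14980) and probes with a CV over 50% in both groups (284), and 41332 remained. The methods of the study give these filters but apply the CV on a log scale. The linear scale was used here, and the CV of the log2 signal was an alternative. HFD was compared with CD with limma 3.58.1 (lmFit and eBayes, R 4.3.3, all 4 arrays, no covariates) and Benjamini-Hochberg adjustment over all tested probes. A probe was called at p under 0.05 before adjustment and at least a 2-fold change. Of several probes of a gene, the brightest stood for it in lists. The number of arrays limits the precision, and 0 spots were saturated. The transcripts of probes were matched to RefSeq genes (GRCm38.p6), which named 32981 probes with 1 of 22905 symbols. Probes are given without coordinates because the builds of the array design and of this table differ.

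Members, lists and tests were chosen with earlier results of these data known. Genes named were all members, the first 3 genes of each list, list genes past both cutoffs and the 5 genes nearest to the members in profile, except 1 gene under this rule that is not reported here. Spib, Cd72, Ly6d, Blk, Jchain, Elavl3, Nefl, Prl3b1, Gcm1, Prl8a2, Psg23, Kdm5d, Uty and the mesenchyme genes after the first 3 fall outside this rule and were named after their values were seen. The same holds for Klrb1c. Lists were written by hand from general knowledge. The steps were tested on simulated data. Alternatives were quantile normalization, normexp (offset 50, on median brightness), the deposited table, an intensity floor of 5, other dim and CV filters, the methods' t-test, the replicate number as a block, the mean over the probes of a gene, and leaving out each array in turn. The values within each replicate number were added after the data were seen. Tables used pandas 2.3.3 and numpy 2.4.6 in Python 3.11.15, and plots matplotlib 3.10.9.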

Additional observations from a re-analysis of the deposited data

How the results depend on the processing

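None of the early B lymphoid probes passed both cutoffs under any of the alternatives. With 1 probe per gene for the 8 tested genes, no p fell under 0.1004 (limma) in any alternative with a test, and 17 values changed sign there, all but 3 of them on leaving out 1 array. Leaving out 1 array in turn gave ranges of -0.20 to 0.20 for Cd79a, -0.26 to 0.26 for Cd79b, -0.88 to 0.083 for the first and -0.79 to 0.87 for the second Ebf1 probe (smallest limma p 0.077), -0.51 to 0.41 for Igll1, -0.14 to 0.025 for Il7r, -0.17 to 0.40 for Pax5, -0.52 to 0.62 for Rag2 and -0.10 to 0.21 for Vpreb1, all of which hold 0, and of -0.096 to 0.089 for the median of the members. Normexp turned Cd79a to -0.13 and Rag2 to -0.11 and moved the median to -0.092, and the deposited table gave -0.00089 for Cd79a. The cause was not tested.

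Over all probes, 318 passed both cutoffs (121 higher, 197 lower). The counts were 33 with normexp (11 and 22), 845 without a filter on dim probes (385 and 460) and 97 with the methods' t-test (41 and 56), and 71 were higher when a probe had to be well above background in a group. Leaving out 1 array gave 654 to 1226 (190 to 843 higher, 383 to 466 lower). With the CV of the log2 signal 337 passed. Genes of the other lists past both cutoffs numbered 4, 6 with the CV of the log2 signal (Tpbpa and Prl3b1 added), 7 with the deposited table and 4 to 7 without 1 array. With a replicate block 435 probes passed (177 higher, 258 lower) and 0 of the members. The deviations of same-numbered samples correlated at -0.0997 over tested probes, so these probes did not show the numbers to pair the samples. Of the 5 sex-linked genes listed, 0 were tested, and in both diets the numbers split the arrays by Y-linked transcripts. The replicate block thus also separated the arrays with these transcripts from those without. Signal over background limits Rag1, 1 Rag2 probe and Cd79a, and 2 arrays per group limit Ebf1, Igll1 and Rag2, whose intervals hold a 2-fold change.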
